A study of Mus musculus with 2 samples.

Results

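The cAMP-induced immediate early genes are 10 genes whose transcription follows a rise of cyclic AMP within minutes in many cell types. They were taken by name, as the probes whose gene label on the arrays is Egr1, Egr2, Nr4a1, Nr4a2, Nr4a3, Dusp1, Btg2, Gem, Rgs2, Klf4 or a synonym of these. Of the 10 genes, 9 were measured, out of 17318 measured genes in all, and no probe was named for Nr4a3. Germ cells of 5 adult male C57BL/6 mouse testes, pooled, were fixed with formaldehyde, and sheared chromatin was precipitated with an antibody against CREM or, as the negative control, with goat IgG. DNA from the CREM precipitate was labelled with Cy5 and the IgG control with Cy3, and the pair was hybridised 1 time to each of 2 promoter arrays, with no dye swap. Array 1 held Nr4a2, Btg2, Gem, Rgs2 and Klf4, and array 2 held Egr1, Egr2, Nr4a1 and Dusp1. With 1 hybridisation per array there was no spread between samples and no test, so dye and antibody cannot be told apart in any ratio and the number of arrays limits the precision. Precipitated DNA carries no expression level, so the makeup of the cell preparation was not checked against marker genes.

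CREM, the cAMP response element modulator, belongs with CREB and ATF1 to a family of leucine zipper factors that bind the cAMP response element, or CRE. In most cells, cAMP frees the catalytic subunit of protein kinase A, which phosphorylates these factors, and the immediate early genes are among their best known targets. Postmeiotic male germ cells contain activator forms of CREM, which there work with the coactivator Fhl5 (ACT) without that phosphorylation. Of the 10 genes, 6 encode transcription factors: the zinc finger proteins Egr1, Egr2 and Klf4 and the orphan nuclear receptors Nr4a1, Nr4a2 and Nr4a3. The other 4 encode proteins that restrain signalling or growth: Dusp1, a phosphatase of MAP kinases, Btg2, an antiproliferative cofactor of mRNA deadenylation, Gem, a small GTPase that inhibits calcium channels, and Rgs2, which speeds the inactivation of G proteins.

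The sequences that carry the results are of 2 kinds, the probes with the highest ratios and the elements that CREM recognises. In all of them capitals mark the 5-base CRE core, TGACG or its reverse complement CGTCA, and the full palindromic element, TGACGTCA, which holds both. The probes below are given as printed on the arrays, with mm9 coordinates. The Gem probe with the highest ratio within that gene's highest window (chr4:11632303-11632358, GC content 41.1%) and the brightest Btg2 probe of its window (chr1:135976486-135976536, 41.2%) hold no core.
Gem, log2 ratio 2.29: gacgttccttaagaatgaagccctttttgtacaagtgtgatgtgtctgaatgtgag
Btg2, log2 ratio 1.83: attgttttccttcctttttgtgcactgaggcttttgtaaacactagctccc
Probes that hold a core show how different the ratios over this element were. The Btg2 probe at chr1:135975873-135975917 and the Klf4 probe at chr4:55548699-55548748 hold the full element. The Nr4a1 probes at chr15:101097003-101097054 and chr15:101097228-101097272 flank a set of cores just before that gene's start, and the Rgs2 probe at chr1:145851425-145851469 lies at the same kind of place.
Btg2, log2 ratio -2.09: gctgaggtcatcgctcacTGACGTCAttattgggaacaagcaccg
Klf4, log2 ratio 0.17: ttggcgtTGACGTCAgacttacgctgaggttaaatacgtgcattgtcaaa
Nr4a1, log2 ratio 1.44: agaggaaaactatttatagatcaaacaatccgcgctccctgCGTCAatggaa
Nr4a1, log2 ratio -1.65: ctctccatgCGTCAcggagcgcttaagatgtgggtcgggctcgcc
Rgs2, log2 ratio -1.86: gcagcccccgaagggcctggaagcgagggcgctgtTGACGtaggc

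The 250 bases before the transcript start, read 5′ to 3′ on the strand of the gene from RefSeq (GRCm38.p6), are shown for Btg2 and Dusp1, whose promoters hold the full element, and for Nr4a1 and Nr4a3, with 4 cores each. Nr4a2 also has 4 cores and is not shown, and Nr4a3 has no named probe. Their positions in that assembly, with 50 further bases after the start, are chr1:134079106-134079405 on the minus strand for Btg2, chr17:26508423-26508722 on the minus strand for Dusp1, chr15:101266596-101266895 on the plus strand for Nr4a1 and chr4:48045055-48045354 on the plus strand for Nr4a3.
Btg2: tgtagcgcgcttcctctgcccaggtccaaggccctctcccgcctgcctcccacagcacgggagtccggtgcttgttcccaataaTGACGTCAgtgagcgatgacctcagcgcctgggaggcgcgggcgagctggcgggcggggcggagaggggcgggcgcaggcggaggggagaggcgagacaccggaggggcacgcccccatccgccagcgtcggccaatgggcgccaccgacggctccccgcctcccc
Dusp1: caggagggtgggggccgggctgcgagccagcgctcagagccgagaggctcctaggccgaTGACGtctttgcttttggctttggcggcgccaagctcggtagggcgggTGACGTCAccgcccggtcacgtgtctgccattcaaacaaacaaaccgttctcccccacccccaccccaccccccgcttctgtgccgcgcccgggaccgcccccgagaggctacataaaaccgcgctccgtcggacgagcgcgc
Nr4a1: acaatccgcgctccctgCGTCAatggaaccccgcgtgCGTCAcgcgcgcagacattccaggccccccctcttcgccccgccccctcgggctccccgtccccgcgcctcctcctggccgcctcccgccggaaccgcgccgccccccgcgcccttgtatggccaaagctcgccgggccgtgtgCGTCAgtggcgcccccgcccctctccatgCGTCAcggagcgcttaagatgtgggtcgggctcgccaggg
Nr4a3: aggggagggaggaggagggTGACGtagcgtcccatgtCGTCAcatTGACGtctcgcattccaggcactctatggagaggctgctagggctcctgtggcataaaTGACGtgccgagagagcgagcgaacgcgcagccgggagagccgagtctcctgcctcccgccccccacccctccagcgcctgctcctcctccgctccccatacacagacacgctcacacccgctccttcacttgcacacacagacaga

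Enrichment over IgG was found at 6 of the 9 measured genes: Gem, Btg2, Rgs2, Klf4, Nr4a1 and Dusp1. A gene was called where its highest window, the median log2 ratio of CREM over IgG of 3 neighbouring probes, reached 1, which is 2-fold. The share of 66.7% stands against 34.5% of all measured genes. The members are probed more densely than most genes, with 23 to 42 windows each, and among the 5924 genes with that many windows 38.6% were called. Of 323 member windows, 60 (18.6%) were called, against 5.99% of all windows, and of 355 member probes, 76 (21.4%) reached 1, against 9.45% of all probes. The 4 regulators of signalling had 44 of 161 windows called (27.3%), and the 5 measured transcription factor genes 16 of 162 (9.88%). Those 16 came from Nr4a1 (9) and Klf4 (7) only. Median GC content was 41.5% in probes of the regulators and 45.6% in those of the transcription factor genes. Neither share was tested against the other, and neighbouring windows share probes. The members were chosen with earlier results of these data known, so their shares are a description.

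Values below are log2 ratios unless a signal is named, and signals are the scanner's background-subtracted, dye-normalised intensities. Control probes spotted at least 12 times gave the technical spread, with a median SD of 0.14 on array 1 and 0.12 on array 2 (18 probes each) where both channels were well above background. Where only CREM was above background the median SD was 0.33 (4 control probes) and 0.67 (3 control probes). In 61 of the 355 member probes IgG was not well above background, among them 25 of the 76 that reached 1. For these only a lower bound can be given, which lies at or below the printed ratio. On the whole arrays, 96.3% and 95.5% of probes were well above background in CREM and 77.4% and 78.5% in IgG on arrays 1 and 2.

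Gem had the highest window of the group, at 2.26 (chromosome 4, 11631986 to 11632358, mm9). Its 3 probes had ratios of 0.71, 2.26 and 2.29, from CREM signals of 2599, 5561 and 8805 against IgG signals of 1561, 1141 and 1771. All of these were well above background, and the middle value corresponds to 4.79-fold more CREM than IgG signal. Of all measured genes, 3.14% had a higher value than Gem, and 5.38% reached 2. Overlapping windows past the threshold on the same side were joined into regions, which take in all their probes. The end probes of a region can thus fall short of the threshold or lie on the other side. The highest Gem window lay inside a called region of 1587 bp with 11 probes (11631882 to 11633468), and a second region of 739 bp (11630676 to 11631414) peaked at 1.67. Between them, a probe of 64.4% GC content had -1.12, and next to it the end probe of the second region had -0.42. With the GC trend removed these were -0.06 and -0.53. The lowest Gem window was -0.42, so no window there lay on the IgG side. The largest single ratio of any member, 3.78, also came from Gem, but its IgG signal of 69.1 was not well above background and the ratio is at least 1.63. For Gem, Egr1 and Nr4a2 no start was placed here, so positions are not given relative to it.

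Btg2 was enriched on both sides of its transcript start. Its highest window, 1.83 (chromosome 1, 135976060 to 135976536), was centred at -521 bp from the start (negative distances are upstream) and had probes of 0.13, 1.87 and 1.83. The CREM signals of those probes were 1687, 1163 and 8467, and the IgG signals 1517, 313 and 2338. The called region around it ran from -2250 to -351 bp, 1949 bp long with 13 probes, the longest of any member. Downstream, a region from 218 to 907 bp peaked at 1.34. Between these regions the ratios turned: the probe at -51 bp had -2.42, with a CREM signal of 2172 against 11469 for IgG, and the probe at -163 bp, which carries the full element printed above, had -2.09, with 333 against 1394. Its lowest window, -2.09, was -0.91 with the GC trend removed and -0.36 with normexp.

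Rgs2 had 13 of 40 windows called, in 3 regions. Its highest window, 1.81 (chromosome 1, 145851560 to 145851907, centred at -488 bp), held probes of 1.81, 1.49 and 2.1. Only the probe at -306 bp had IgG signal above background, with 6303 in CREM and 1772 in IgG. Put at their lower bounds, the 3 probes give a window of at least 1.03, and the highest Rgs2 window with all 3 probes measured in both channels was 1.34, in a region from -3151 to -2516 bp. A region from 143 to 783 bp after the start was bright in both channels: its probes at 599, 423 and 311 bp had 1.4, 1.03 and 1.22, with CREM signals of 9504, 11303 and 6517 against IgG signals of 3531, 5450 and 2754. As at Btg2, the probe nearest upstream of the start, at -168 bp, was low, with -1.86. With the GC trend removed it had -0.47.

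Dusp1 was also enriched on both sides of its start. Its highest window, 1.4 (chromosome 17, 26645923 to 26646211, centred at -662 bp), had probes of 2.59, 0.68 and 1.4, from CREM signals of 1359, 2340 and 5420 against IgG signals of 223, 1441 and 2027. The 223 was not well above background, so that probe's ratio is at least 2.22. Next to it, the 3 probes at -964, -1088 and -1216 bp had 1.34, 1.58 and 1.34, all well above background in both channels. A region from 518 to 1147 bp after the start peaked at 1.12, and its end probe at 518 bp had -1.03. Around the start the order was turned, with -3.35 at -12 bp, where the CREM signal of 35.2 was not well above background and the ratio is -1.8 or lower, and -1.57 and -1.56 at 339 and 236 bp. The lowest Dusp1 window was -1.56, and it was -1.28 with the GC trend removed and -0.71 with normexp.

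**Figure D1:**
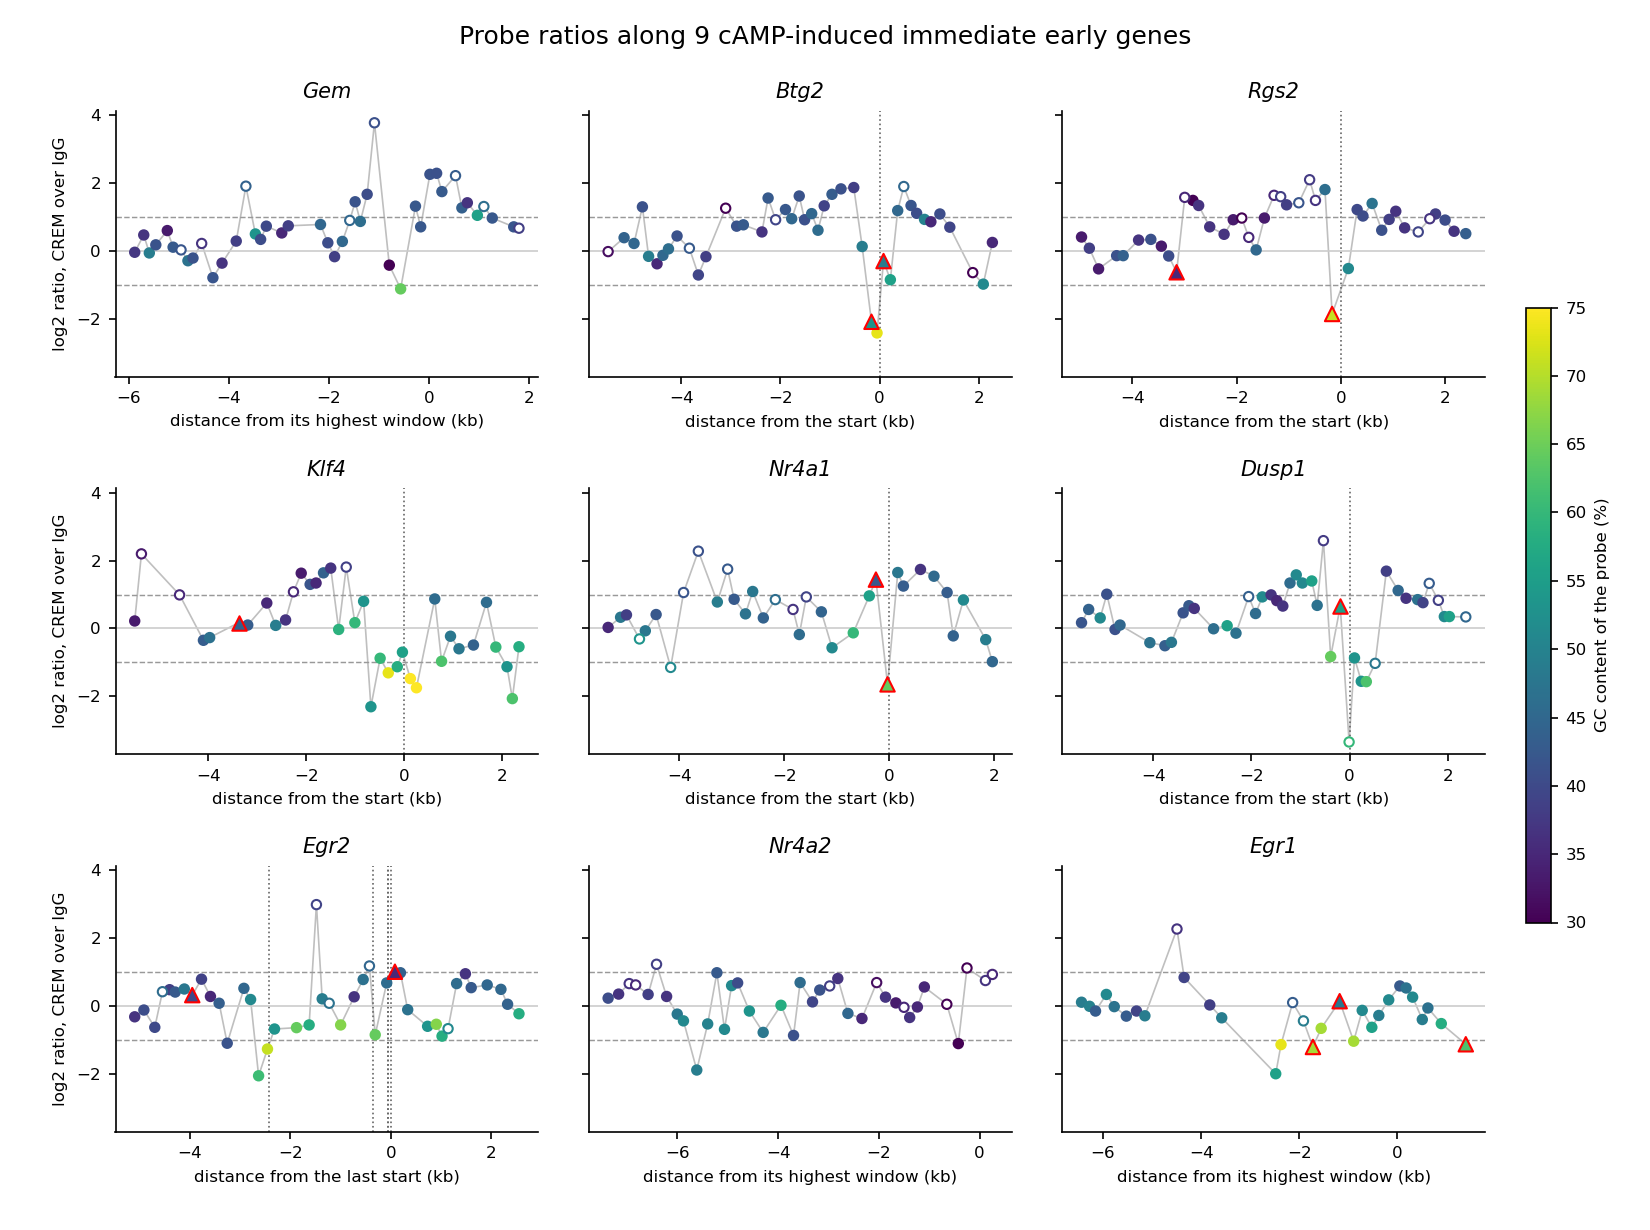
Log2 ratio of CREM over IgG of each probe against its distance in kb from the transcript start (dotted line) or, for Gem, Nr4a2 and Egr1, from the centre of the highest window, with colour for GC content, open circles where one channel was not well above background, red-edged triangles for probes with a CRE core (filled whatever their signal), and dashed lines at 1 and -1. At Btg2, Rgs2, Nr4a1 and Dusp1, probes above 1 lie on both sides of the start and the lowest probes lie at or next to it.

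Among the transcription factor genes, Klf4, a regulator of differentiation that spermatids express strongly, was enriched upstream only. Its highest window was 1.78 (chromosome 4, 55546504 to 55546878, centred at -1340 bp), with probes of 1.81, -0.03 and 1.78. The CREM signals were 935, 3961 and 2976 and the IgG signals 263, 3977 and 851, and the 263 was not well above background, which makes 1.81 at least 1.59. The called region ran from -2423 to -1185 bp, with 9 probes. From -682 to 620 bp, 8 probes formed a region on the IgG side with a lowest window of -1.48, the widest such region among the members at 1349 bp. Its end probe at 620 bp had 0.87. The probes at 247 and 123 bp, both of 77.8% GC content, had CREM signals of 8236 and 14646 against IgG signals of 27180 and 40147. With the GC trend removed these 2 had -0.16 and 0.1, and the median of the region's probes went from -1.22 to -0.17.

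Nr4a1 (Nur77) was called in a promoter region and in a distal one. The promoter region ran from -249 to 1227 bp around the start, with 8 probes that passed the background flag in CREM and in IgG, and peaked at 1.65 (chromosome 15, 101097423 to 101097908). Its probes at 168, 276, 601 and 859 bp had 1.65, 1.25, 1.74 and 1.54, from CREM signals of 1748, 6593, 4961 and 9015 against IgG signals of 549, 2744, 1468 and 3055. The distal region, from -4166 to -3079 bp, held the higher window of 1.75 (101093611 to 101094225), but IgG was not well above background in 4 of its 5 probes and that window is at least 0.29. Its end probe at -4166 bp had -1.15. The region at the promoter does not rest on dim spots. One of the 8 promoter probes, at -27 bp, had -1.65, between neighbours of 1.44 and 1.65.

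Egr2 (Krox20), Nr4a2 (Nurr1) and Egr1 (Zif268) were not called. Egr2 came closest, at 0.98 (chromosome 10, 67000570 to 67000891), with probes of 0.68, 1.01 and 0.98 that were above background in both channels, and the middle one, 78 bp after an annotated start, holds a CRE core. Of Egr2, 5 RefSeq starts were placed, and the lowest window, -1.27, lay at the most upstream of them. With the GC trend removed the same probes gave -0.41. Nr4a2 had 0.93 (chromosome 2, 56972481 to 56973044), from CREM signals of 141 to 198 against IgG signals of 64 to 108 that were all dim. Its highest window with all probes measured in both channels was 0.6. Egr1 had the lowest value, 0.53 (chromosome 18, 35021754 to 35022155), with probes of 0.18, 0.59 and 0.53, and 68.7% of all genes were higher. The Egr1 probes spread around 0, with a median of -0.15 over 31 probes, 5 of them at -1 or less and 1 at 1 or more. Nothing was measured at Nr4a3.

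Ranked by their highest windows the 9 genes ran Gem, Btg2, Rgs2, Klf4, Nr4a1, Dusp1, Egr2, Nr4a2 and Egr1. Btg2, Rgs2, Klf4 and Nr4a1 differed from their neighbours in that order by 0.02 or 0.03, and Egr2 from Nr4a2 by 0.05, all less than the SD of repeated control spots in both channels above background, although IgG was dim in 2 probes each at Rgs2 and Nr4a1, 1 at Klf4 and 3 at Nr4a2, where control spots spread more. The order is a description, since different probes are compared, the spread of control spots is technical, and genes on different arrays were never hybridised together. With all 3 probes above background in both channels the values were 2.26 for Gem, 1.83 for Btg2, 1.65 for Nr4a1, 1.64 for Klf4, 1.4 for Dusp1, 1.34 for Rgs2, 0.98 for Egr2, 0.6 for Nr4a2 and 0.53 for Egr1. Rgs2 then stood below Dusp1 and Nr4a2 next to Egr1, each by less than that SD.

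**Figure D2:**
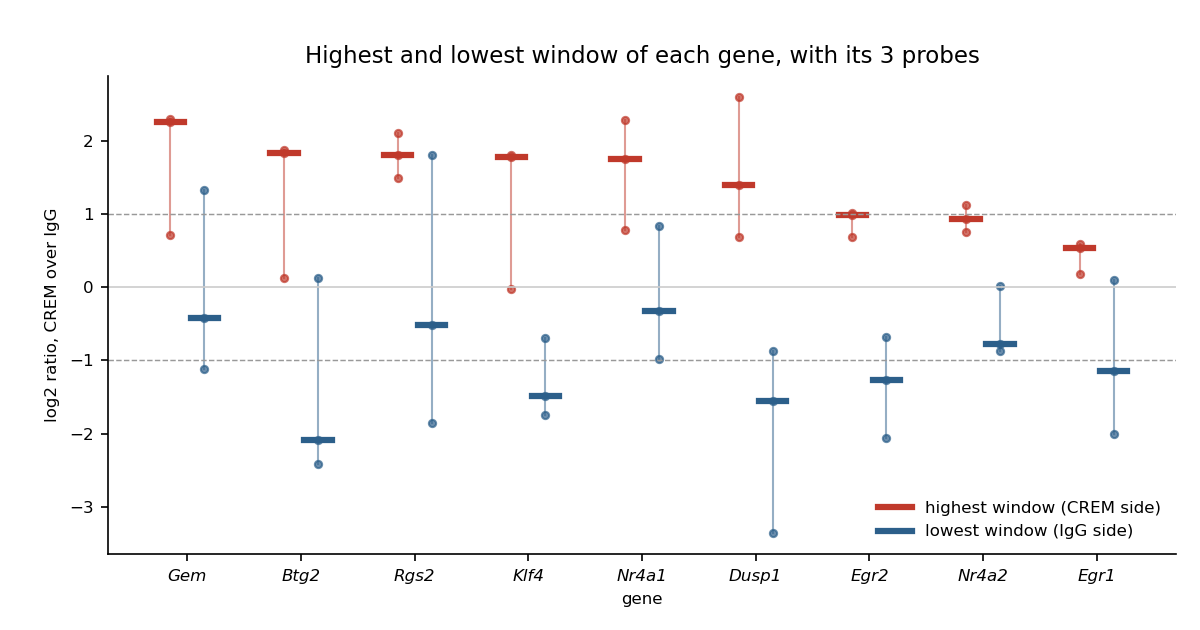
Highest window (red) and lowest window (blue) of each gene as log2 ratio of CREM over IgG, where bars are the medians, points the 3 probes and thin lines their range, and dashed lines mark 1 and -1. Btg2, Klf4 and Dusp1 pass both lines, and Gem, Rgs2 and Nr4a1 pass only the upper one.

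On the IgG side, 5 of the 9 genes had a window at -1 or less: Btg2 (-2.09), Dusp1 (-1.56), Klf4 (-1.48), Egr2 (-1.27) and Egr1 (-1.14). This share, 55.6%, stands beside 33.7% of all genes, and 46.4% of the genes with 23 to 42 windows. Over windows, 17 of 323 (5.26%) lay there, against 4.56% of all windows, and 27 of 355 member probes (7.61%), against 6.52% of all probes. Btg2, Dusp1 and Klf4 were on both sides, as were 12.1% of all genes. The same threshold thus gave 17 member windows towards IgG beside the 60 called ones. With the trend along GC content removed 58 were called and 1 lay towards IgG, at Dusp1 (-1.28). Over all windows the shares were then 5.33% and 1.26%. With normexp background correction the member counts were 31 and 0, and the shares of all windows 2.43% and 0.34%, so the IgG side shrank over all genes too.

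The ratio moved with the GC content of the probes. The 12 called regions had a mean GC content of 42.6%, against 57.7% in the 6 IgG-side regions. Member probes of 40 to 50% GC had a median ratio of 0.49, and 26.5% of the 166 reached 1, against a median of 0.04 and 8.74% of all probes in that bin. At 30 to 40% GC the median was 0.66 over 106 member probes, against 0.12. At 60 to 70%, by contrast, 20 member probes had a median of -0.92, against -0.94, with 0 of them at 1 or more, and the 7 member probes of 70 to 80% were all at -1 or less, as were 77.9% of all probes in that bin. At 50 to 60% GC, 7.84% of member probes reached 1, against 2.37%. The members' excess over other genes was thus measured mainly below 50% GC, and above 60% their medians lay within 0.02 of those of all probes.

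**Figure D3:**
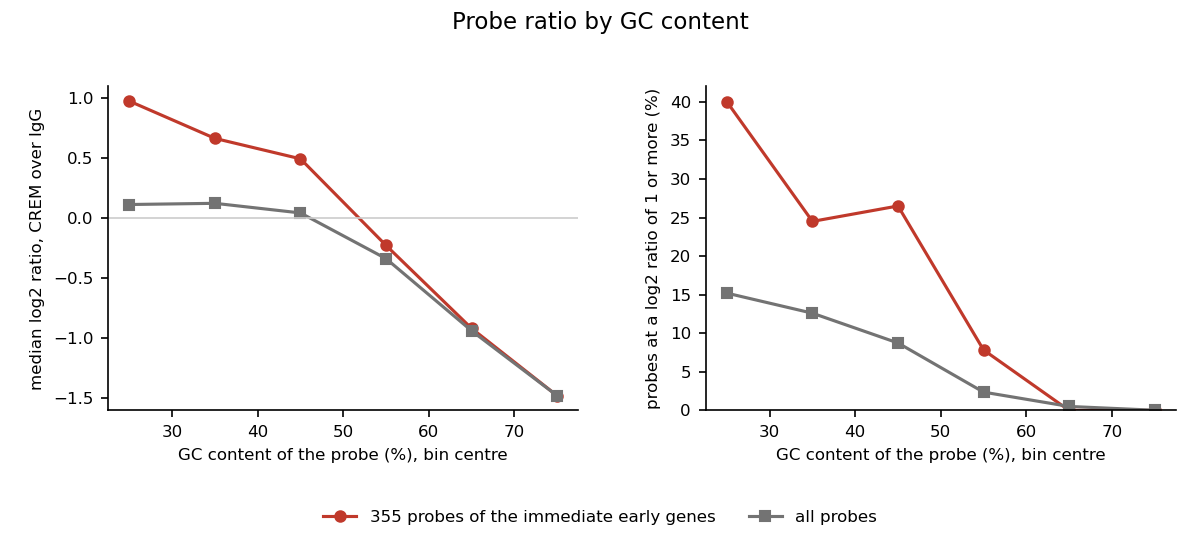
Median log2 ratio of CREM over IgG (left) and percent of probes at 1 or more (right) by GC content of the probe in bins of 10%, for the 355 member probes (red) and all probes (grey). The red line lies above the grey one below 50% GC, by 0.49 against 0.04 in the bin of 40 to 50%, and the lines meet above 60%.

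Transcript starts could be placed on the arrays for 6 of the measured members, Btg2, Rgs2, Klf4, Egr2, Nr4a1 and Dusp1, by finding array probes within the RefSeq promoter sequence. Within 250 bp of a start, the 26 member probes had a median of -0.85, with 15.4% at 1 or more and 42.3% at -1 or less. All genes had a median of -0.35 there, with 10.3% and 25.3%. Farther out, up to 2000 bp, the 123 member probes had a median of 0.82 and 34.1% reached 1, against 0.11 and 13.1% over all genes. Beyond 2000 bp the members' median was 0.31, with 14.9% at 1 or more, against -0.04 and 6.22%. The median thus stood highest in the flanks of the start and lowest over it, in the members pooled and in all genes. Nr4a1 and Egr2 were exceptions, with 1.44 and 0.68 within 250 bp and 0.56 and 0.24 in the flanks. Klf4 was lowest within 250 bp, at -1.3, but had 0.07 in the flanks and 0.17 beyond 2000 bp. With the GC trend removed the 3 member medians were -0.21, 0.74 and 0.27, and those of all genes -0.02, 0.11 and -0.08, so the start was then still lowest in the members but not in all genes. The GC content of member probes averaged 56.4% within 250 bp of a start and 44.9% in the flanks. Within 1000 bp of a start, 4 of the 6 genes had a called window (Btg2, Rgs2, Nr4a1 and Dusp1), against 28.1% of all genes with a placed start.

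**Figure D4:**
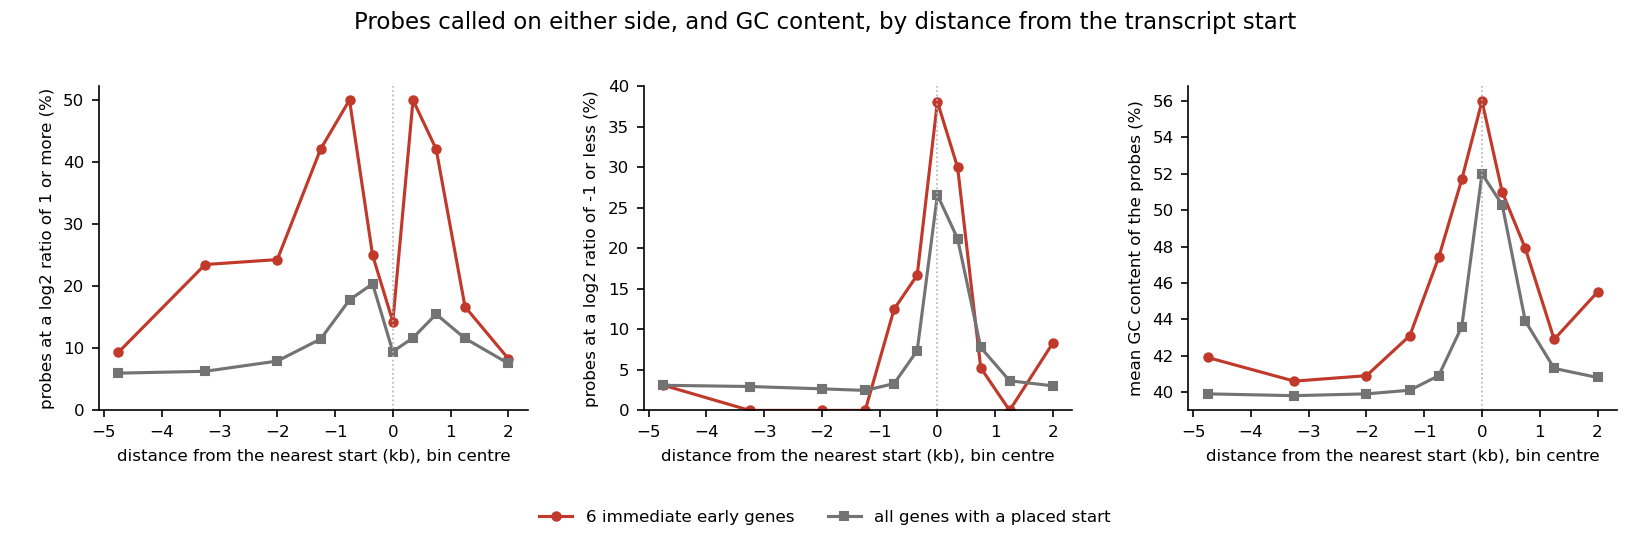
Percent of probes at a log2 ratio of 1 or more (left) and of -1 or less (middle) and mean GC content (right) by distance in kb from the nearest transcript start, for the 6 members with a placed start (red) and all genes with one (grey). For the members 50% of probes reach 1 both from -1000 to -500 bp and from 200 to 500 bp, with 14.3% from -200 to 200 bp.

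The CRE is the best known element of cAMP-induced genes, and all 8 members with a promoter entry had at least 1 core within the 300 bases from 250 before to 50 after a start, on either strand. The 8 genes had 12 promoters, and a gene counted if any of its promoters held a core, which not every Egr2 promoter did. Of all 32851 promoters of that length, 20.8% had a core, and with 1 promoter per gene it was 21% of 27025. The full element was found at Btg2, from -166 bp, and Dusp1, from -143 bp, and in 1.79% of all promoters. Nr4a1, Nr4a2 and Nr4a3 each had 4 cores, and 0.231% of all promoters had 4 or more. The cores of Nr4a1 began at -233, -213, -69 and -40 bp. Egr2 had a CArG box, the element of serum response factor, written CCATATATGG, beside its 2 cores. The 8 genes were chosen as cAMP targets, so these matches describe the genes and add nothing on binding.

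Few of the probes that hold a core had a high ratio. Of 13 member probes with a core, 2 reached 1, the Nr4a1 probe at -249 bp (1.44) and the Egr2 probe at 78 bp (1.01), while 5 were at -1 or less, in Btg2, Rgs2, Nr4a1 and, 2 of them, Egr1. Their median was -0.3, against 0.39 for all member probes, and with the GC trend removed it was 0.07, with 1 probe left at -1 or less. That 1 probe is the Btg2 probe over the full element, whose GC content is 53.3% and whose ratio was then -1.72. With normexp it was -0.36. At Dusp1 the probe at -192 bp, which reaches a core next to the full element, had 0.65 between neighbours of -3.35 and -0.83. With the GC trend removed it had 1.02. The 2 core probes at 1 or more were then those of Nr4a1 (1.33) and Dusp1, and the Egr2 probe had 0.9. The probe of Klf4 with a full element, at -3377 bp, had 0.17, with IgG not well above background. Of all probes on the arrays, 2.56% of those at 1 or more held a core, 1.8% of those between -1 and 1 and 5% of those at -1 or less. For the member probes these shares were 2.63%, 2.38% and 18.5%. Sheared fragments reach past the 45 to 60 bases of a probe, and the probes of these genes lay a median of 173 bp apart, so a ratio does not belong to the printed bases alone.

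Another background correction made a different window the highest in 8 of the 9 genes, all but Gem, and changed the call of Klf4 and Egr2. At Btg2, Klf4, Dusp1 and Egr1 the new window overlapped the old one, and at Nr4a1, Rgs2, Egr2 and Nr4a2 it lay apart. Normexp adds an offset of 50 to the corrected signals, which compresses the ratios of dim probes. The offset came before the scanner's dye scaling, by 21.6 and 24.6 for IgG and 6 and 7.02 for CREM on arrays 1 and 2. It thus weighs more on IgG, and ratios of bright probes can rise. At Dusp1 the probe at -2495 bp (23006 against 21542) went from 0.08 to 0.99. With normexp the 3 probes of the highest window gave 0.3 at Btg2, 0.14 at Rgs2, 0.37 at Klf4 and 0.02 at Nr4a1, but 1.94 at Gem and 1.21 at Dusp1. Other windows then stood highest. Btg2 had 2.16, centred at -779 bp, with CREM signals of 1163 to 10970 against IgG signals of 313 to 3379. Nr4a1 had 1.92 at 601 bp, in the promoter region described above, Rgs2 had 1.54 at 423 bp and Dusp1 had 1.54 at -964 bp, all with the 3 probes above background in both channels. Klf4 had 0.54 and was no longer called, while Egr2 was called at 1.23, in a window centred at 1306 bp with IgG dim in 1 of 3 probes. Over 13 other settings of background, centring, filter and window, Gem, Btg2, Rgs2, Nr4a1 and Dusp1 were called in all, Klf4 in 12, Egr2 in 5, and Nr4a2 and Egr1 in 0. Some of these settings hardly differ. Loess and the authors' values are nearly the same, 1 saturated spot per array was left out, and the centring shift was 0.02.

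**Figure D5:**
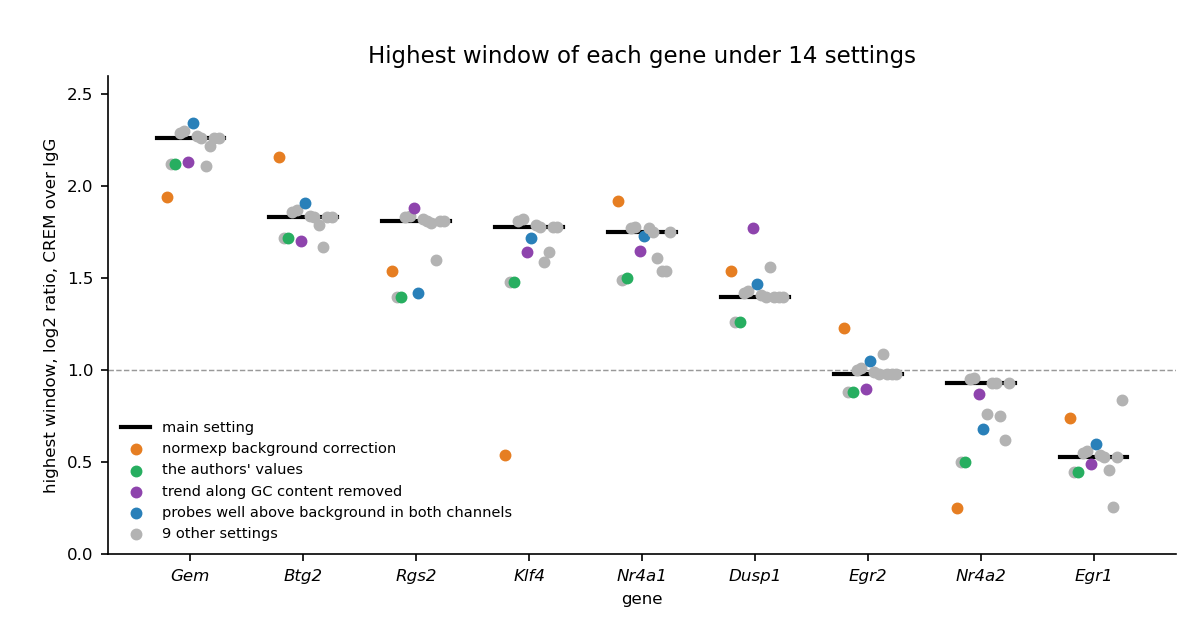
Highest window of each gene as log2 ratio of CREM over IgG in the main setting (black bar) and 13 others (points), with the dashed line at 1. Gem spans 1.94 to 2.34, Klf4 spans 0.54 to 1.82, and Egr2 spans 0.88 to 1.23 across the line.

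Other genes known to respond to cAMP were found on both sides. Of 64 measured, 36 (56.2%) were called, against 66.7% of the members and 34.5% of all genes, and 31 (48.4%) had a window on the IgG side, against 33.7% of all genes. These 64 genes had a median of 30 windows, against 19 over all genes. Among genes with 23 to 42 windows, 38.6% were called and 46.4% had a window on the IgG side, which is close to the 48.4%. The median highest window of the 64 was 1.08. The highest were Homer1, a synaptic scaffold protein, at 2.89, Pcna, the replication clamp, at 2.63, and the immediate early gene Ier2 at 2.56, with IgG dim in 2 of 3 probes at Homer1 and Ier2. With normexp the same probes gave 1.69, 1.99 and 0.56. The lowest were Pdyn (0.36), which encodes an opioid precursor, Star (0.23), the steroidogenic cholesterol carrier, and Cga (0.18), the common subunit of the gonadotropins, the last a classic CRE gene of the pituitary. This count depends on the processing more than that of the members: it was 18 with normexp and 19 with the authors' values, when 16.2% and 17.3% of all genes were called and 6 members each time. Among family relatives of the members, 5 of 9 were called: Klf6 (3.07), Egr3 (1.85), Btg1 (1.47), Dusp4 (1.34) and Rrad (1.23), a GTPase related to Gem. IgG was dim in 2 of the 3 probes at Klf6 and Rrad and in all 3 at Egr3, and with normexp the same probes gave 1.34 at Klf6, -0.04 at Rrad, -0.33 at Egr3, 1.33 at Btg1 and 1.2 at Dusp4. On the IgG side, 7 of the 9 relatives (77.8%) had a window, against 33.7% of all genes and 46.4% of those with 23 to 42 windows. Klf2 (0.75), Dusp2 (0.63), Dusp6 (0.39) and Rgs1 (0.18) were not called, and Egr4 was not measured. The Egr, Klf and Dusp families each held genes that were called and genes that were not.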

How the data were processed

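Probes are placed on mouse build mm9, and the scans were quantified with Agilent Feature Extraction 10.7.1.1, per the file headers. The deposited intensity columns hold each spot's brightness per channel, as scanned and as a background-subtracted, linearly dye-normalised signal, and the deposited log10 column is the ratio of Cy5 over Cy3, per the file headers. The authors' deposited log2 values equal background-subtracted loess ratios in the order of the scanner file (correlation 1 over 243464 and 243456 spots, medians -0.000965 and -0.00103), so their direction is Cy5 over Cy3. R 2.10.1 and limma are named in the submitters' processing notes.

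The values used here are log2 of the processed CREM over the processed IgG signal, centred on each array's median (a shift of 0.02 on both), with no loess. Control spots, outliers, spots without a position and probes dim in both CREM and IgG were left out, which kept 228277 and 226404 probes. Windows were 3 probes with starts at most 500 bp apart, at a threshold of 1, or -1 for the IgG side. A lower bound sets a dim IgG signal to at least the lowest signal well above background (306 on array 1 and 288 on array 2), and a dim CREM signal likewise (103 on array 2). The GC trend was removed as the median of each 2% bin with at least 50 probes. Normexp (offset 50) and loess were run on signals before dye normalisation with limma 3.58.1 in R 4.3.3, the rest with Python 3.11.15. Starts were placed by exact matches of probes in RefSeq promoters. For 46 probes with a distance in the array design they differed from it by a median of 14.5 bp and at most 67 bp. The scripts were tested on simulated data. No genome of build mm9 was used, so exons and introns are not stated.

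The named genes are the 10 members, their listed family relatives, Crem, Creb1 and Atf1, and the 3 highest and 3 lowest of each gene list. The members and lists were chosen with earlier results of these data known. The other genes of a list were counted only, and 1 gene that the rule picks is not reported here.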

Additional observations from a re-analysis of the deposited data

How the results depend on the processing

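Changed 1 at a time, 13 settings, some of them nearly the same, kept the call of Gem, Btg2, Rgs2, Nr4a1 and Dusp1 and left Nr4a2 and Egr1 uncalled. The count of called members stayed between 5 and 8 with every setting of background, centring, filter, window and threshold, while the share of all genes moved. The count was 8 at 1.5-fold and 5 at a log2 ratio of 1.5, when 64.4% and 14.1% of all genes were called. With the settings of background, centring, filter and window, that share ran from 16.2% to 36.4%. The count was 0 with the mean of all probes of a gene, which averages over the whole tiled stretch (0.96% of all genes were then called). It was 9 with the highest single probe (74.9% of all genes). Called member windows numbered 31 with normexp, 132 at a lower threshold of 1.5-fold and 19 at a log2 ratio of 1.5, when 2.43%, 14.8% and 2.03% of all windows were called. Of 323 member windows, 0 lay on the IgG side with normexp, 1 with the GC trend removed and 5 at a log2 threshold of 1.5. Of all windows, 0.34%, 1.26% and 1.48% lay there. These member windows came from 0, 1 and 2 members, and the share of all genes with such a window was not counted at these settings. Other cAMP-induced genes called numbered 18 with normexp, 19 with loess, 19 with the authors' values, 21 with probes above background in both channels, 21 with windows of 5 probes and 14 at a log2 threshold of 1.5, when 16.2%, 17.2%, 17.3%, 20.8%, 19.8% and 14.1% of all genes were called. Judged by the window centred on the probe, 1 probe with a CRE core was called, the Nr4a1 probe at -27 bp (window 1.44, own ratio -1.65), and the windows of both probes called by their own ratio lay at 0.96 and 0.98. Beyond these constructions the cause of the changes was not tested. Depth is limited by signal over background: IgG was dim in 61 of 355 member probes, and only bounds can be given there. No paired analysis was possible because each array holds 1 hybridisation and shares no probe with the other.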

Other observations

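Genes of the cAMP pathway itself, which act upstream of the immediate early genes, reached the call at 16 of 35, or 45.7%, against 34.5% of all genes, and their median highest window was 0.86. They had a median of 27 windows, against 19 over all genes, and 38.6% of the genes with 23 to 42 windows were called. On the IgG side, 23 of the 35 (65.7%) had a window at -1 or less, against 33.7% of all genes and 46.4% of those with 23 to 42 windows. The highest were Prkar1a (3.13) and Prkar2a (2.49), regulatory subunits of protein kinase A, and Fhl5 (2.39), the coactivator of CREM in spermatids. At Prkar1a and Prkar2a, IgG was not well above background in 2 and 3 of the 3 probes. With normexp the same probes gave 0.22 and 0.04, and those of Fhl5 0.57. The lowest were Pde7a (0.26), a phosphodiesterase, Crtc3 (0.19), a CREB coactivator, and the adenylyl cyclase gene Adcy4 (0.06). Of CREM and its relatives, Atf1 had 1.1, Crem 0.63 and Creb1 0.62.

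Genes known to need Crem in spermatids reached the call at 20 of 25 (80%), against 34.5% of all genes, and their median highest window was 1.51. Genes of somatic testis cells did so at 3 of 24 (12.5%), and their median was 0.49, against 0.77 over all genes. The highest spermatid genes were Hils1 (2.7), a linker histone, Cyp51 (2.6), an enzyme of sterol synthesis, and Fhl5. IgG was dim in 2 of the 3 probes at Hils1 and 1 at Fhl5. With normexp the same probes gave 1.36 at Hils1, 1.41 at Cyp51 and 0.57 at Fhl5. The lowest were Prm2 (0.66), Zp3r (0.56) and Prm1 (0.37), where Prm1 and Prm2 encode the protamines. The called somatic genes included Wt1 (1.3) and Insl3 (1.09), and Star (0.23), Gata4 (0.19) and Gata1 (0.11) were lowest. IgG was dim in 2 of the 3 Wt1 probes, and normexp gave 0.03 at Wt1 and 0.39 at Insl3 for the same probes. On the IgG side there were 5 of 25 spermatid genes (20%) and 6 of 24 somatic genes (25%), against 33.7% of all genes. Fhl5 stands in both the pathway list and the spermatid list, and Star in both the cAMP-induced list and the somatic list. No difference between lists was tested. The lists were chosen with earlier results of these data known, so their shares describe the chosen genes and are no independent check of the precipitation.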
